A study of Mus musculus with 32 samples.

Results

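The genes described are the nuclear subunits of mitochondrial complex I in mouse muscle, read across both genotypes and 4 ages. Members were the genes of the deposited table whose symbol was Nduf followed by a, b, c, s or v and a number. They numbered 36 of 54838 genes in the table, and all 36 had at least 10 counts in at least 4 libraries. Assembly factors (Ndufaf genes), Ndufab1 and suffixed genes such as Ndufa4l2 fell outside the rule. The symbol alone chose the members.

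The 32 RNA libraries came from tibialis anterior muscle, 4 for each of WT and Mtm1 KO at P1, P14, P21 and P35. Mtm1 encodes myotubularin, a phosphoinositide phosphatase whose loss causes X-linked myotubular myopathy. The KO mice carried a targeted deletion in an exon of Mtm1 that shifts the reading frame in all cells, and both genotypes were on the C57BL6/J background with no treatment. The deletion came from a line first made in another strain background and rederived, and the labels do not tie libraries to litters.

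Complex I passes electrons from NADH to ubiquinone and pumps protons across the inner mitochondrial membrane. Its matrix arm holds the N module, where NADH is oxidised, and the Q module, where ubiquinone is reduced, and its membrane arm has a proximal and a distal part. Core subunits, found also in bacteria, do the catalysis and are encoded partly in the nucleus and partly in mitochondrial DNA, while accessory subunits surround them and are needed for assembly or stability.

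Of the 36 members, 7 encode nuclear core subunits, such as Ndufv1, Ndufs1 and Ndufs8, and 28 encode accessory subunits. By the structure of the complex, 10 belong to the N module, 6 to the Q module, 9 to the proximal membrane arm and 10 to the distal membrane arm. Ndufa4 keeps its historical name but its protein is counted with complex IV, so it was kept apart.

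The labelled tissue was skeletal muscle. Totals ranged from 49321035 to 85631408 expected counts per library. Mtm1 was lower in every KO library than in every WT library of its age: at P35 it was 20.7 to 24.9 CPM (counts scaled to a library of standard size) in WT and 3.32 to 3.95 CPM in KO. At P1 KO replicate 4 stood apart, with Mtm1 at 3.91 CPM against 2.32 to 2.45 CPM in the other KO libraries. At P14 replicate 4 of both genotypes held the highest summed member level, 9654 CPM in WT and 9272 CPM in KO, against 6495 to 7827 CPM in the other 6 libraries. The 6 fibre markers (Acta1, Ckm, Ttn, Neb, Tnnt3 and Pygm) were present in all libraries, and keratinocyte markers were high only at P1, at 1731 to 6432 summed CPM.

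All 36 members rose between P1 and P14 in both genotypes. Levels are given as CPM on TMM scaling over all 32 libraries, and fold changes come from edgeR's quasi-likelihood test (p-values adjusted by Benjamini and Hochberg's method across every gene in the fit). The median log2 fold change was 1.54 in WT and 1.62 in KO, and every member was called at adjusted p under 0.01, where 32.9% of all genes tested in WT and 31.0% in KO were called higher. Member levels at P14 did not overlap those at P1 in either genotype (36.1% of genes tested in WT and 33.8% in KO were likewise higher without overlap). All 36 also passed with library totals in place of TMM scaling, which set the median over all genes at -0.84 in WT and the member median at 0.77. Fibre genes rose over the same step: the median summed level of the 6 fibre markers went from 26761 to 79538 CPM in WT. In KO it went from 25378 to 71596 CPM. Keratinocyte markers fell from 2572 to 3.36 CPM in WT and from 4106 to 3.40 CPM in KO. The part of tissue composition in the rise of the members was not tested.

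Ndufb3, an accessory subunit of the distal membrane arm, rose most in WT. Its 4 WT libraries measured 33.9, 36.6, 32.1 and 29.8 CPM at P1 and 154, 141, 160 and 196 CPM at P14. The change was 2.28 ± 0.11 on the log2 scale (SE, adjusted p 4.72e-11). Ndufc1, of the proximal arm, followed with 2.17 ± 0.11, and Ndufa13, of the same arm, came next. The smallest rises were those of Ndufa7 (1.08 ± 0.09), Ndufa11 (1.14 ± 0.09) and Ndufb7 (1.16 ± 0.09), which still had P14 levels above all P1 levels. In KO the same 3 genes had the largest rises, 2.38 for Ndufb3, 2.28 for Ndufc1 and 2.17 for Ndufa13. The 7 core subunits were spread through this range, from 1.31 for Ndufs8 to 1.93 for Ndufs1 in WT, with a median of 1.53 against 1.54 for the accessory subunits.

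Since the members moved together with age, their promoters were searched for 5 letter patterns, on both strands, in the 300 bases from 250 before to 50 after each gene's start. RefSeq windows on GRCm38.p6 were matched to 32 of the 36 members, and those of Ndufa2, Ndufb9 and Ndufs1 were among the unmatched. The relaxed NRF1 pattern, the capitals in the Ndufa11 and Ndufa8 windows with the base where they differ left free, was found in 7 of the 32 windows (21.9%), against 4.78% of 27025 windows of all genes, and its strict form, the capitals in the Ndufa11 window, which it includes, in 1 (3.13% against 0.977%). The YY1 pattern AAGATGGCG was in 5 (15.6% against 1.49%), the ETS pattern CCGGAAG in 4 (12.5% against 9.12%) and the nuclear receptor pattern AAGGTCA in 3 (9.38% against 4.66%). Among the 16 windows of members that were lower in KO at P35, 3 held the relaxed NRF1 pattern, as did 4 of the 16 windows of members that did not pass. These are letter matches and not measured binding.

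The windows of 4 members that carry the patterns are shown, each 5′ to 3′ on the strand of its gene, with the matched letters in capitals. Ndufa11 lies at chr17:56717512-56717811 (plus strand) and holds the strict NRF1 pattern 60 bases before its start. Ndufa8 lies at chr2:36049289-36049588 (minus strand) with the relaxed NRF1 pattern 30 bases before its start, Ndufs8 at chr19:3912725-3913024 (minus strand) with the ETS pattern on its opposite strand 15 bases after its start, and Ndufs7 at chr10:80249199-80249498 (plus strand) with the YY1 pattern 24 bases after its start. Distances are to the leftmost base of the match, and all 4 genes were lower in KO at P35 under TMM, as described with their values further on.
Ndufa11: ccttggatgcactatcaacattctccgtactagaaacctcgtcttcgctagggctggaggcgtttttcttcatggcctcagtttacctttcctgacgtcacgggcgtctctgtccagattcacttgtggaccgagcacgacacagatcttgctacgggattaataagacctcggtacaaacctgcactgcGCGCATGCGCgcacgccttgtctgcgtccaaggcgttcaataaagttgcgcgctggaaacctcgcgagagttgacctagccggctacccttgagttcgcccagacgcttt
Ndufa8: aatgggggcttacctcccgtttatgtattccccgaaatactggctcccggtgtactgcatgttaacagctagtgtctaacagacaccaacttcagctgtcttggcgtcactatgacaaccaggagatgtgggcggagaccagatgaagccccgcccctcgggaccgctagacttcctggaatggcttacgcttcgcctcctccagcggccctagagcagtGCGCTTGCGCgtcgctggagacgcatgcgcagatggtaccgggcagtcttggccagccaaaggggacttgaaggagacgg
Ndufs8: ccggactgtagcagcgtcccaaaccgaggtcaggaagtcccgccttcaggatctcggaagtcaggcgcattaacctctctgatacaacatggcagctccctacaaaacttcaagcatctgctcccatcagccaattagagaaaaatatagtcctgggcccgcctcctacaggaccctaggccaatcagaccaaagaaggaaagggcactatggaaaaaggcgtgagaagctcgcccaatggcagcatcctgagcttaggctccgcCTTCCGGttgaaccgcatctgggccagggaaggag
Ndufs7: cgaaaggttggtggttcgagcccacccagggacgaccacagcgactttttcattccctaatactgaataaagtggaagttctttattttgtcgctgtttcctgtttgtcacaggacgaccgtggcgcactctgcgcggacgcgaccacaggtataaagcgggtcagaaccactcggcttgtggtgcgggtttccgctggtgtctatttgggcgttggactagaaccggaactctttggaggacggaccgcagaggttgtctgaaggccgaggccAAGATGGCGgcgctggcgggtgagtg

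After P14 few members passed in any step. From P14 to P21, 3 members rose in WT, where 8.90% of all genes tested were called higher, among them Ndufs7 (0.48 ± 0.10, adjusted p 0.00208) and Ndufb5 (0.40 ± 0.10, adjusted p 0.00721). Without WT replicate 4 at P14, whose members were high, 11 members rose, and without any other library 0 to 2 did. From P21 to P35 another 3 rose in WT, where 5.11% of genes were called higher: Ndufa2, an N module accessory subunit (0.59 ± 0.11, adjusted p 0.00188), Ndufb2 (0.58 ± 0.11, adjusted p 0.00250) and Ndufb6 (0.47 ± 0.11, adjusted p 0.00743). That count was 6 without WT replicate 4 at P14 and 1 without WT replicate 3 at P21. Consecutive steps share the libraries of the age between them.

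In KO no member passed from P14 to P21 (5.30% of genes called higher and 5.49% lower), where 0 members had an unadjusted p under 0.05 for a rise and 2 for a fall, where 18.8% of genes did. DESeq2 also called 0. From P21 to P35 only Ndufa2 rose in KO among the members (0.60 ± 0.13, adjusted p 0.00606, 4.18% of genes called higher). That call was lost without any 1 of the KO libraries of P21, or without KO replicate 3 or 4 of P35, and with library totals 8 members rose, where 8.24% of genes were called higher. The Ndufa2 values in KO were 96.0, 109, 103 and 108 CPM at P21 and 132, 131, 179 and 191 CPM at P35, without overlap. The median change of the members in these steps was 0.18 and 0.17 in WT against -0.05 and -0.00 in KO with TMM, and 0.01 and 0.11 in WT against -0.09 and 0.15 in KO with library totals, which left KO above WT from P21 to P35.

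KO and WT were compared next at each age. At P1 and P14 no member passed (0.0442% of genes called higher and 0.0% lower at P1, 0.0318% and 0.00636% at P14), no member had an unadjusted p under 0.05 and DESeq2 called 0. The median log2 fold change of the members was -0.09 at P1 and -0.01 at P14. Leaving out 1 library moved the P1 median between -0.18 (without KO replicate 3) and -0.03 (without KO replicate 1), with -0.07 without KO replicate 4 and -0.04 without WT replicate 2. At P14 the sign depended on single libraries and on scaling, with medians from -0.13 without KO replicate 4 to 0.09 without WT replicate 4, and 0.07 with library totals. The smallest unadjusted p at P1 belonged to Ndufv3 (-0.19 ± 0.10) and Ndufc1 (-0.20 ± 0.11), and at P14 to Ndufs1 (-0.21 ± 0.11).

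At P21, 9 members were lower in KO and none was higher, where 3.39% of the genes tested were called lower and 4.74% higher. Among them were the core subunits Ndufs1, Ndufs8, Ndufv2 and Ndufv1 and the accessory subunits Ndufa8, Ndufa10, Ndufb8 and Ndufa9. The median over the 36 members was -0.23 with TMM, against 0.01 over all genes. For 23 members every KO library lay below every WT library (11.0% of all genes). None of the 9 changed by more than 1.5-fold (1.5% of genes tested were lower by that rule).

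Ndufs1, the largest subunit of the complex and a carrier of iron-sulphur clusters in the N module, had the lowest fold change at P21. It measured 836, 783, 731 and 749 CPM across WT, against 541, 562, 529 and 549 CPM across KO. The difference on the log2 scale came to -0.49 ± 0.06 (adjusted p 0.00124). The lowest WT library was above the highest KO library by more than the range within either group. Ndufa8, an accessory subunit of the proximal arm, measured 268, 274, 240 and 218 CPM across WT, against 180, 200, 173 and 181 CPM across KO. It changed by -0.43 ± 0.08 (adjusted p 0.00759). Ndufs8, an iron-sulphur subunit of the Q module, measured 113, 121, 110 and 96.1 CPM across WT, against 75.9, 89.7, 77.5 and 80.8 CPM across KO, and changed by -0.43 ± 0.09 (adjusted p 0.00832). All KO libraries lay below all WT libraries in both genes. Ndufa10, of the proximal arm, changed by -0.37 ± 0.07 (adjusted p 0.00568). Ndufb8 (-0.36 ± 0.07), Ndufa9 (-0.35 ± 0.07) and Ndufv1 (-0.32 ± 0.06), which binds NADH, were the 3 smallest changes that passed, and some reads of Ndufb8 could also come from an overlapping gene on the same strand. Only Ndufs1 passed at P21 whichever library was left out, and 1 member was called without WT replicate 1 or 2 or without KO replicate 1, 3 or 4, 3 without KO replicate 2 and 4 without WT replicate 3.

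At P35, 19 members were lower in KO and none was higher, where 12.5% of the genes tested were called lower and 12.0% higher. Both core and accessory subunits passed, and 6 of the 19 changed by more than 1.5-fold (7.52% of genes tested), among them Ndufs1, Ndufs8, Ndufa10, Ndufa8 and Ndufs7. The median over the 36 members was -0.41 against 0.04 over all genes, and in 21 members the groups did not overlap (20.4% of all genes). All 9 members called at P21 were among the 19. Without KO replicate 1 or KO replicate 3 the count was 11, and without WT replicate 2 it was 12.

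**Figure D1:**
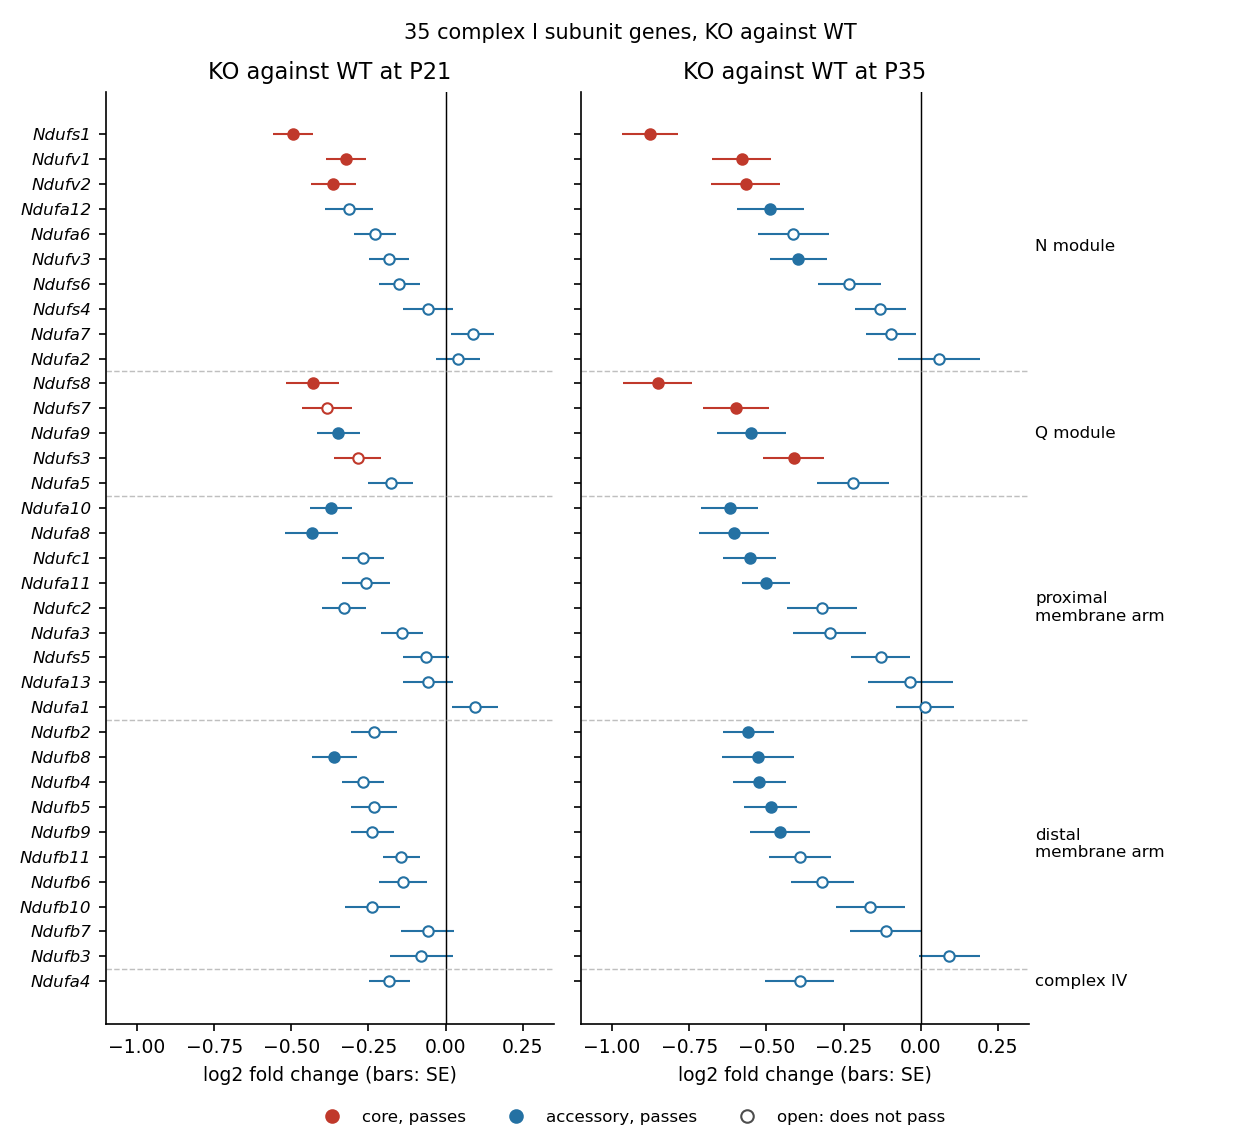
Log2 fold change with its SE of 35 of the 36 members, KO against WT (n=4 each), at P21 (left) and P35 (right), by module and with TMM scaling; filled points passed at adjusted p under 0.01, red marks core and blue other subunits. The core subunits shown are filled at P35 and Ndufs1 lies lowest at both ages, and of the 36 members 14 of the 33 below 0 at P35 (12 of 33 at P21) are above 0 with library totals.

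Ndufs1 had the lowest fold change at P35 too. It measured 779, 833, 923 and 888 CPM across WT, against 483, 422, 438 and 490 CPM across KO. The difference on the log2 scale came to -0.88 ± 0.09 (adjusted p 0.000165). All KO libraries at P35 lay below all KO libraries at P21, while the WT libraries of the same ages overlapped. Neither step passed on its own, with -0.25 ± 0.14 (adjusted p 0.223) in KO and 0.13 ± 0.09 (adjusted p 0.329) in WT.

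Ndufs8 measured 103, 128, 142 and 117 CPM across WT, against 62.2, 62.8, 65.6 and 76.5 CPM across KO at P35, a change of -0.85 ± 0.11 (adjusted p 0.000445). All KO libraries lay below all WT libraries, and KO replicate 4 was the highest of the KO libraries. Ndufs7, which carries the last iron-sulphur cluster before ubiquinone, was 211, 223, 238 and 199 CPM across WT, against 128, 125, 143 and 170 CPM across KO (-0.60 ± 0.11, adjusted p 0.00215). Ndufs3, also a core subunit of the Q module, measured 288, 323, 337 and 303 CPM across WT, against 222, 199, 236 and 267 CPM across KO, and changed by -0.41 ± 0.10 (adjusted p 0.00915). Its call was lost in 12 of the alternatives, and 96.9% of its values were not whole numbers, as happens where the authors' counting divided reads between genes. Of the 2 accessory subunits of the Q module, Ndufa9 passed (-0.55 ± 0.11, adjusted p 0.00395) and Ndufa5 did not (-0.22 ± 0.12). Exons of Ndufs1 and Ndufs3 overlap genes on the opposite strand, among them Ino80dos and Kbtbd4, and the strand setting of the counting is not stated.

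In the N module, Ndufv1 measured 490, 553, 642 and 551 CPM across WT, against 373, 351, 351 and 396 CPM across KO at P35 (-0.58 ± 0.10, adjusted p 0.00138). Ndufv2, its iron-sulphur partner, measured 438, 520, 524 and 485 CPM across WT, against 309, 280, 326 and 391 CPM across KO (-0.57 ± 0.11, adjusted p 0.00331). Neither gene overlapped between the groups. Of the 7 accessory subunits of the N module, Ndufa12 (-0.49 ± 0.11) and Ndufv3 (-0.40 ± 0.09, adjusted p 0.00803) passed, while Ndufa6 (-0.41), Ndufs6 (-0.23), Ndufs4 (-0.13), Ndufa7 (-0.10) and Ndufa2 (0.06) did not. The values of Ndufa12 were not whole in any library. With library totals Ndufv3 stood at 0.00 and on the other side of 0.

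In the proximal membrane arm 4 of 9 members passed at P35: Ndufa10 (-0.62 ± 0.09, adjusted p 0.000826), Ndufa8 (-0.60 ± 0.11, adjusted p 0.00257), Ndufc1 (-0.55 ± 0.09, adjusted p 0.00104) and Ndufa11 (-0.50 ± 0.08, adjusted p 0.00101). Ndufa10 measured 334, 381, 406 and 385 CPM across WT, against 238, 222, 231 and 273 CPM across KO, so the groups did not overlap. Ndufa13 of the same arm measured 263, 291, 276 and 254 CPM across WT, against 218, 214, 278 and 333 CPM across KO (-0.03 ± 0.14, adjusted p 0.862). Its KO libraries lay on both sides of the WT libraries. Ndufa1, an X-linked subunit, was at 0.01 ± 0.09, Ndufs5 at -0.13 ± 0.10 and Ndufc2 at -0.32 ± 0.11. Ndufa3, an accessory subunit that the study names as a protein, was 127, 150, 147 and 136 CPM across WT, against 104, 90.4, 122 and 133 CPM across KO at P35, a change of -0.30 ± 0.12 that did not pass (adjusted p 0.0697) and that was 0.10 with library totals. At P21 Ndufa3 changed by -0.14 ± 0.07 (adjusted p 0.166), and by 0.05 with library totals.

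In the distal membrane arm 5 of 10 members passed at P35: Ndufb2 (-0.56 ± 0.08, adjusted p 0.000797), Ndufb8 (-0.53 ± 0.12, adjusted p 0.00595), Ndufb4 (-0.52 ± 0.09), Ndufb5 (-0.49 ± 0.09, adjusted p 0.00193) and Ndufb9 (-0.46 ± 0.10, adjusted p 0.00517). Of these, Ndufb2, Ndufb8 and Ndufb9 overlap another gene on the same strand, and the values of Ndufb4 were not whole in any library. Ndufb3 measured 157, 185, 188 and 171 CPM across WT, against 174, 160, 195 and 207 CPM across KO, a change of 0.09 ± 0.10 (adjusted p 0.473). Ndufb7 was at -0.11 ± 0.12, Ndufb10 at -0.16 ± 0.11, Ndufb6 at -0.32 ± 0.10 and Ndufb11, whose groups did not overlap, at -0.39 ± 0.10 (adjusted p 0.0122). Ndufa4 measured 481, 554, 595 and 493 CPM across WT, against 361, 355, 406 and 469 CPM across KO. Its groups did not overlap, its change of -0.39 ± 0.11 did not pass (adjusted p 0.0199), and with library totals it was at 0.01.

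**Figure D2:**
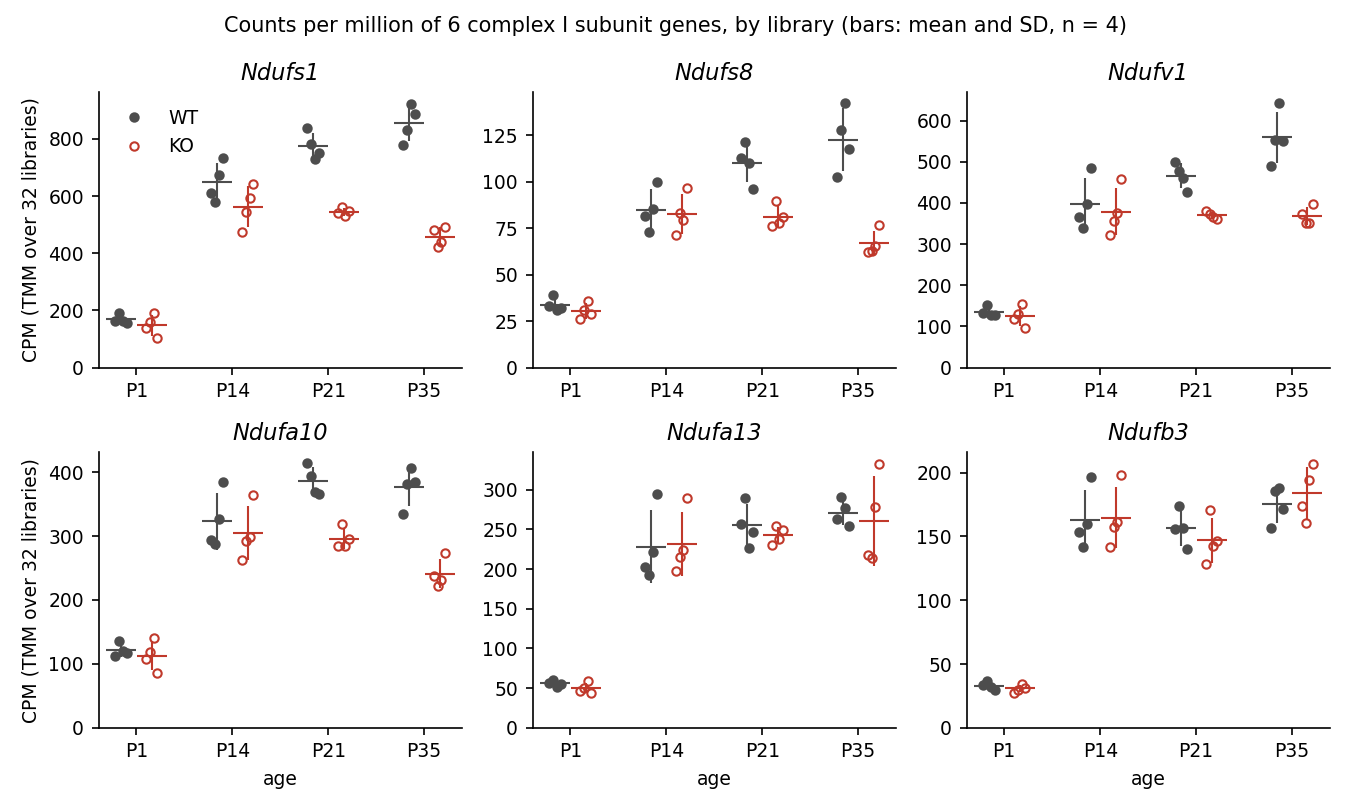
CPM (TMM over all 32 libraries) of 6 members in each library, against age; filled grey points are WT, open red points KO, and bars give the mean and SD (n=4). Ndufs1, Ndufs8, Ndufv1 and Ndufa10 separate by genotype at P21 and P35, while Ndufa13 and Ndufb3 overlap at every age.

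By module, 5 of 10 members of the N module were lower in KO at P35. In the proximal arm 4 of 9 were, and in the distal arm 5 of 10. The medians of the N module, proximal arm and distal arm were -0.41, -0.32 and -0.42 under TMM. With library totals they were -0.01, 0.08 and -0.03, and 5 members of each were above 0. The median of the Q module was -0.57 under TMM and -0.18 with library totals. The order of the members was much the same at both ages: 32 of 36 were below 0 at both P21 and P35 (with TMM), 31 had a lower fold change at P35 than at P21, and Spearman's rank correlation between the ages was 0.91 over 36 genes. The libraries of both ages are different, while all genes of a library share its scaling factor.

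Whether the KO effect differed between ages was tested by the interaction over all 32 libraries. No member passed in any step: P14 against P1 (0.0108% of genes called higher and 0.00538% lower), P21 against P14 (0.377% and 0.0484%) or P35 against P21 (0.151% and 0.312%). From P14 to P21, 5 members had an unadjusted p under 0.05 for a stronger loss, where 5.64% of genes did, with Ndufa8 first (-0.44 ± 0.16, adjusted p 0.210). From P21 to P35, Ndufs8 (-0.43 ± 0.16, adjusted p 0.154) and Ndufs1 (-0.39 ± 0.17, adjusted p 0.226) had an unadjusted p under 0.05, where 9.66% of genes did. DESeq2 called 0 members in each step. Calls at P21 and P35 and none at P14 are therefore not a tested difference for any member.

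The direction of many members depended on how the libraries were scaled. TMM and DESeq2 size factors set the median of all genes near 0, while plain library totals placed it at 0.20 at P21 and 0.44 at P35 in KO against WT. With library totals the member median was -0.05 at P21 and -0.02 at P35, and 1 and 2 members were lower, where 1.31% and 3.50% of genes were: Ndufs1 at P21 (-0.31) and Ndufs1 (-0.48) and Ndufs8 (-0.45) at P35. At P35, 3 members were then higher, Ndufb3 (0.49), Ndufa1 (0.41) and Ndufa7 (0.30), where 40.4% of genes were called higher. Relative to the median of all genes the members were at -0.24 at P21 and -0.45 at P35 with TMM and with library totals alike. That likeness was fixed in advance, since a change of scaling shifts all genes of a library together. The accessory median turned from -0.36 with TMM to 0.04 with library totals at P35. All 7 core subunits were below 0 at both ages with TMM, DESeq2 size factors and both kinds of library totals, and of the 19 members that passed at P35 only Ndufv3 went above 0 with library totals.

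Mitochondrially encoded transcripts made up 15.6% of a WT library and 10.4% of a KO library at P35 (means of 4). With these transcripts left out of the totals, 2 members were lower at P21, among them Ndufs1, and 3 at P35, among them Ndufs1 and Ndufs8, where 1.44% and 4.40% of genes were called lower, and the medians were -0.09 and -0.11. The members together took 0.688% to 0.840% of the counts of a WT library at P35 and 0.681% to 0.817% of a KO library, which overlap. On the TMM scale their summed level was 9394 to 11013 CPM in WT and 6488 to 8507 CPM in KO, which do not.

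**Figure D3:**
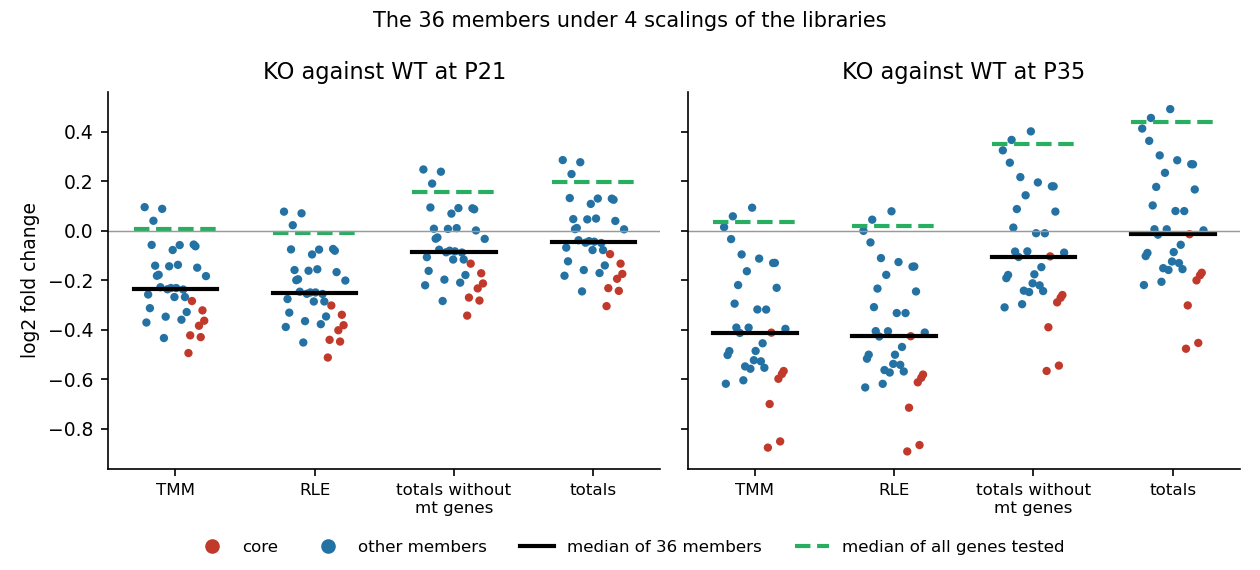
Log2 fold change of each of the 36 members, KO against WT at P21 (left) and P35 (right), under 4 scalings; red points are core subunits, black lines the member median and green dashed lines the median of all genes tested. The whole set shifts up with library totals, to a median of -0.02 at P35, while the 7 core subunits stay below 0, at a median of -0.20.

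A comparison within each library does not depend on its scaling. The mean log2 CPM of the 7 core genes minus that of the 28 accessory genes was 1.04 to 1.16 in WT and 0.711 to 0.819 in KO at P35. At P21 it was 1.12 to 1.21 in WT and 0.930 to 0.999 in KO. The groups did not overlap at either age, nor at P14 (0.886 to 0.945 and 0.814 to 0.882). At P1 they overlapped, with 0.906 to 0.937 in WT, 0.931 to 0.951 in 3 KO libraries and 0.686 in KO replicate 4. No test is given for this difference, since it averages over members.

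**Figure D4:**
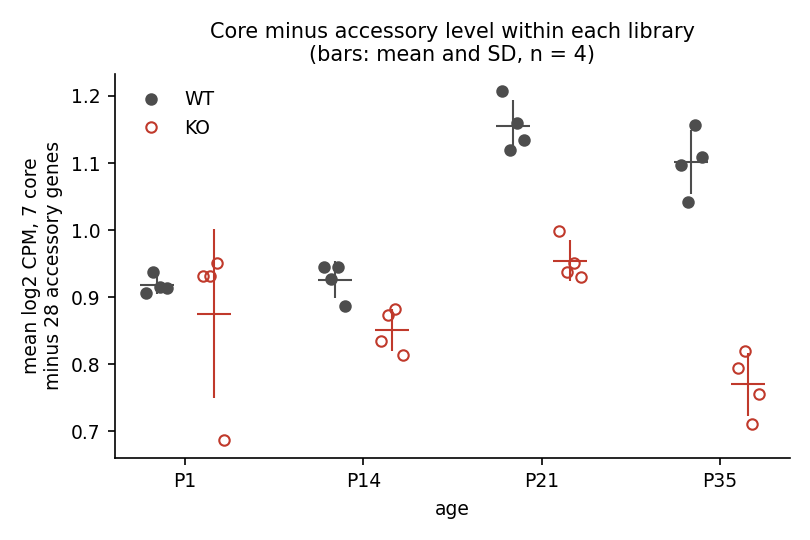
Mean log2 CPM of 7 core genes minus that of 28 accessory genes within each library, against age; filled grey points are WT, open red points KO, and bars give the mean and SD (n=4). WT rises to 1.12 to 1.21 at P21, and KO at P35 lies between 0.711 and 0.819, below all WT libraries and overlapping only KO at P1 and P14.

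Core and accessory genes also differ in length. Exons summed to 1291 to 8086 bases in the core genes (median 2178) and to 419 to 5628 bases in the accessory genes (median 1234). At P35 Spearman's rank correlation between the log2 fold change and exon length was -0.50 over the 36 members, -0.46 over the 28 accessory genes and -0.21 over 13914 protein coding genes, all on the same libraries. The same correlation with the WT level was -0.45 over the 36 members and -0.37 over the protein coding genes. At P21 the correlation with exon length was -0.37 over the members and -0.17 over 13652 protein coding genes. With the WT level it was -0.55 and -0.12. The WT level also enters the fold change as its denominator, so these values are not independent. The part of length and level in the difference between core and accessory genes was not tested.

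Other genes of the pathway were compared between KO and WT in the same fits. The 7 mitochondrially encoded complex I genes all passed lower at P21 (median -0.58) and 6 of them at P35 (median -1.06), led by mt-Nd5 (-1.57 ± 0.18, adjusted p 0.000248) and mt-Nd4l (-1.48 ± 0.14, adjusted p 0.000118), while mt-Nd3 (-0.81 ± 0.21, adjusted p 0.0134) did not. Their summed level was 65948 to 91621 CPM in WT and 35157 to 35732 CPM in KO at P35. They were below 0 with library totals too, at a median of -0.66 at P35. Of 17 complex I assembly factors, 5 were lower at P21 and 10 at P35 with none higher under TMM, while library totals gave 4 lower and 3 higher at P35 and a median of 0.02. The smallest adjusted p were those of Ndufaf4 (-0.71 ± 0.07, adjusted p 0.000168) and Ecsit (-0.67 ± 0.07, adjusted p 0.000177).

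At P35, with TMM, the genes of the other complexes that passed were also lower: 3 of 4 in complex II (Sdha -0.81, Sdhb -0.73), 5 of 9 in complex III (Uqcrc1 -0.99, Uqcrfs1 -0.84), 5 of 13 in complex IV (Cox5a -0.67, Cox7a2 -0.41) and 8 of 15 tested in complex V (Atp5g1 -0.94, Atp5c1 -0.76). Their medians were -0.66, -0.41, -0.39 and -0.50, beside -0.41 for the 36 members, and with library totals -0.26, -0.01, 0.01 and -0.10, beside -0.02. Of 10 genes of iron-sulphur cluster assembly, 3 were lower, among them Isca1 (-0.93 ± 0.08, adjusted p 7.39e-05), which matures such clusters, and Nfs1 (-0.41 ± 0.07, adjusted p 0.00202). Of 10 regulators of respiratory genes, 4 were lower, led by Ppargc1a, a coactivator of mitochondrial biogenesis, at 53.7, 52.0, 66.6 and 57.9 CPM across WT, against 26.6, 25.5, 22.6 and 27.4 CPM across KO (-1.15 ± 0.10, adjusted p 8.51e-05), and Esrra (-0.55 ± 0.08, adjusted p 0.000596). With library totals the medians of these 2 lists turned to 0.03 and 0.15. Nrf1, for whose motif the promoters were searched, was at 0.15 ± 0.08 (adjusted p 0.141).

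Markers of some cell types moved with genotype as well. The summed level of the 6 fibre markers was 88975 to 119593 CPM in WT and 73648 to 80100 CPM in KO at P21, and 72147 to 98966 CPM in WT and 47665 to 60633 CPM in KO at P35, with 0 and 3 of the 6 passing lower. The mean summed level in KO was 0.744 of that in WT at P21 and 0.619 at P35, and in bulk RNA fewer fibres and less RNA per fibre cannot be told apart. Of 6 macrophage markers, 4 were higher at P21 and 3 at P35, with summed levels of 62.4 to 78.1 CPM in WT and 73.3 to 104 CPM in KO at P35. The summed levels overlapped at both ages. For Schwann cell markers the mean summed level in KO was 2.67 of that in WT at P35. It was 1.70 for the low brown adipocyte markers, 0.659 for erythroid, 0.992 for fibroblast and 0.988 for keratinocyte markers. The groups overlapped in all of these lists. Of 5 white adipocyte markers, 3 were higher at P35 (218 to 350 CPM in WT and 357 to 483 CPM in KO), and of 5 endothelial markers 2 were lower (310 to 577 CPM in WT and 272 to 339 CPM in KO, overlapping). At P21 none of the 5 endothelial markers passed, while their summed level was 533 to 816 CPM in WT and 417 to 509 CPM in KO, without overlap. Among 6 myosin heavy chains 3 were higher at P35, led by the embryonic Myh3 (4.16 ± 0.34, adjusted p 7.01e-05) and the slow Myh7 (5.49 ± 0.82, adjusted p 0.000874), while the summed level of the 6 was lower in KO without overlap, at 47958 to 65097 CPM in WT and 33789 to 43038 CPM in KO. A summed level gives most weight to the most abundant genes of a list. With library totals, 5 of 5 white adipocyte and 4 of 5 fibroblast markers were higher at P35, where 40.4% of genes were. Their median log2 fold changes were 3.26 and 0.67, against 0.44 over all genes. Of the macrophage markers 5 of 6 were then higher, while 1 of 6 fibre and 0 of 5 endothelial markers were lower (3.5% of genes). The part of these markers in the change of the members was not tested.

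Levels of the members were set against each other per kilobase of exon, in WT at P35. Ndufb9 had the highest mean (511 ± 44.1 CPM per kb, SD, n=4), and Ndufa4 was at 384 ± 38.5. Of the Ndufb9 values 96.9% were not whole, and its exons overlap another gene on the same strand. The lowest were Ndufb7 (29.6 ± 2.76 CPM per kb) and Ndufv3 (30.9 ± 2.83), whose libraries overlapped, while those of Ndufb9 and Ndufa4 did not. Among the core subunits Ndufv2 (229) and Ndufv1 (212) were close, Ndufs3 was at 144, Ndufs7 at 127 and Ndufs1 at 106, and Ndufs8 was lowest at 95.0 CPM per kb. Exon length joined all annotated transcripts of a gene, so a gene with long unused exons is set too low.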

How the data were processed

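The deposited table held expected counts per gene, which the authors made with STAR 2.6.1 and RSEM 1.2.22 on GRCm38 according to the submitters' processing notes, while the study's methods name HTSeq for counting. The strand setting of the counting is not given in the sources used here. Genes numbered 54838, of which 54809 had a symbol, and 4.26% of values were not whole and were rounded. Totals of 49321035 to 85631408 expected counts per library limit the precision of low genes more than that of the members.

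Genes were kept in a fit by edgeR's filterByExpr. It asks for a CPM equal to 10 counts at the median library size, in as many libraries as the smallest group. They were scaled by TMM and tested with the quasi-likelihood test of edgeR 4.0.16 (R 4.3.3), with its older deviances (legacy setting). Comparisons were KO against WT within each age, ages within each genotype, and the interaction over all 32 libraries. A gene passed at an adjusted p under 0.01, and a fold change over 1.5 was noted as well. Errors of fold changes are SE. The scripts were tested on simulated data. DESeq2 1.42.0, other scalings, filters and thresholds and leaving out each library were alternatives. Figures used matplotlib 3.10.9.

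The labels do not say that libraries came from separate animals, while the study's methods give n=4 for each genotype at P14, P21 and P35. Any 2 libraries of a group differed by a chi-square per degree of freedom of 10.5 to 254, above the spread of counting alone. The p-values measure the spread between these samples, and its technical part was not tested. At P14 libraries with the same replicate number deviated together (correlations of 0.59, 0.67, 0.51 and 0.85 across genes), and a replicate block left the P14 counts at 0. At P14 WT replicate 2 correlated more with a KO library of another number, so the pairing was not complete. The pairing comes from the data, since the labels give only the numbers. Named members were the core subunits, Ndufa3, Ndufa4, the extremes among those that passed in each comparison and the highest and lowest levels per length. The remaining members are named to account for the whole set, after their values were seen, as are mt-Nd3 and Nrf1. Members and lists were chosen with earlier results of these data known. Promoter sequences came from RefSeq on GRCm38.p6. Values of 1 member are not reported here.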

Additional observations from a re-analysis of the deposited data

Results flagged for a closer look

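Ndufc1 in WT at P1 had 1 library apart from the others: replicate 2 measured 37.0 CPM, the next library 32.4 CPM and the lowest 31.7 CPM. That library was high for all members, with 0 of 36 below the WT mean. Its summed member level was 2859 CPM, against 2386 to 2525 CPM in the other WT libraries of P1. The gap was 0.857 of the range, above Dixon's 95% critical value for 4 samples. It was the only 1 of 200 groups of named members (25 genes in 8 groups) to exceed it, where chance flags about 1 in 20 groups.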

How the results depend on the processing

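With library totals the member median of KO against WT was -0.0468 at P21 and -0.0154 at P35, and with totals that left out mitochondrially encoded genes -0.0856 and -0.105. The lower members then numbered 1 and 2 at P21 and 2 and 3 at P35, and 3 were higher at P35 with library totals. Ndufa3 reversed to 0.0466 at P21 and 0.102 at P35 with library totals, and to 0.00774 and 0.0124 without mitochondrially encoded genes. Ndufa4 reversed to 0.00612 and 0.00569 and Ndufv3 to 0.00533 and 0.00116 with library totals. The cause was not tested.

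At P21 the 9 lower members became 19 at an adjusted p under 0.05, 19 with DESeq2 and 3 in a fit of all 32 libraries. With a fold change over 1.5 they became 0 (1.5% of genes tested). At P35 the 19 became 6 with a fold change over 1.5 (7.52% of genes tested). In WT from P14 to P21 the 3 higher members became 10 at an adjusted p under 0.05, 0 with a fold change over 1.5, 1 with either kind of library totals, 1 with no filter and 6 with DESeq2. From P21 to P35 the 3 became 6, 1 with a fold change over 1.5, and 5 with totals that left out mitochondrially encoded genes. In KO from P14 to P21 an adjusted p under 0.05 gave 1 lower member. In KO from P21 to P35 it gave 2 higher and 1 lower. Library totals gave 8 higher (8.24% of genes), and totals that left out mitochondrially encoded genes gave 9. Where no share of all genes stands beside a count here, that share is not given. Such counts show only how the calls depend on the rule.

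Leaving out 1 library gave 1 to 9 lower members at P21 and 11 to 22 at P35, 0 to 11 higher in WT from P14 to P21, 1 to 6 from P21 to P35, and 0 to 1 in KO from P21 to P35. A replicate block gave 5 lower members at P21 and 13 at P35. In WT it gave 1 higher from P14 to P21 and 2 from P21 to P35. The share of all genes called is not given for the leave-one-out and replicate block fits either. The numbers did not pair the libraries throughout at any age, P14 included. Correlations ran from -0.46 to -0.03 at P1, from -0.09 to 0.33 at P21 and from -0.12 to 0.29 at P35. Ndufs1 at P21 and P35 and Ndufs8 at P35 passed under every alternative run for them.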
